A study of Drosophila melanogaster with 10 samples.

Results

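The Mediator subunits of Drosophila melanogaster were followed by RNA sequencing in S2 cells, a line from late embryos whose cells resemble hemocytes. Genes were taken as members when their symbol in the deposited tables begins with MED and a digit or is CycC, Cdk8, kto or skd. This gave 29 of the 17869 genes listed for the first set of libraries and 28 of the 11799 genes listed for the second set. All 10 libraries came from cells treated with double-stranded RNA and transfected with Achaete (Ac), a proneural transcription factor, plus Daughterless (Da), with which it pairs, per the labels. Set 1 had 3 groups. Its controls received Luc knockdown (KD) and Ac WT, a second group received the variant Ac R29G under the same Luc KD, and the third received H2A.Z KD together with Ac WT. Set 2 had 2 groups, Luc KD and Arp6 KD, both with Ac WT. Each group had 2 libraries (n = 2 for every mean and SD below), and no library from untransfected cells was analysed here. Separate cultures are not stated in the labels, and the p-values therefore rest on a spread between libraries that could be technical.

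Mediator is a large coactivator that connects DNA-bound transcription factors to RNA polymerase II. Its head and middle modules contact the polymerase and the initiation factors, its tail is the main docking site for activators, and MED14 is the backbone that joins them. A separable kinase module, made of Cdk8, its cyclin CycC, kto (the fly MED12) and skd (the fly MED13), binds the core reversibly and blocks its contact with the polymerase. H2A.Z is a histone variant found at promoters, and Arp6 belongs to the complex that places it into chromatin.

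The libraries of set 1 were deposited in a first and a second table, called A and B here, each with 1 library of every group. Depth ran from 24500413 to 33712374 reads in set 1. The libraries of set 2 held 9396318 to 10608470 reads. Values are reads divided by 1 size factor per library, called scaled reads, and levels of the 2 sets were not compared. The targeted genes were lower to unequal degrees. His2Av, which encodes H2A.Z, was at 26.2% of control in table A and 13.9% in table B, and Arp6 was at 79.8% of control in replicate 1 and 22.0% in replicate 2. The 12 hemocyte markers summed to 469187 to 745760 scaled reads in set 1, with Hml at 86653 to 150364 and NimC2 at 9.0 to 49.1. The 6 fat body markers summed to 24.8 to 74.5, and 1 of them, Lsp1alpha, was listed at 0 in all 6 libraries. The 7 neuronal and 6 muscle markers summed to 849.6 to 926 and 294.8 to 499. The 4 epithelial markers summed to 3553 to 4563, and the 5 germline markers to 1754 to 2552, of which bam held 1599 to 2136.

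Reads were found for 28 of the 29 members, and all 28 passed the filter on low values (a mean of at least 1) in both sets. The exception was MED9, a middle subunit (FBgn0260401, BDGP6 2R 18167255 to 18168380, plus strand), which had 0 reads in each of the 6 libraries of set 1. In the annotation 100% of its 871 exon bases also belong to CG42518 on the same strand, and CG42518 itself was at 0 to 1.2 scaled reads. How reads in shared bases were counted is not stated, so the 0 reads were not taken as a level of MED9. The fly subunit known as MED29 is named ix and is not matched by the naming rule; its values are given with the subunits at the joint of head and tail. The members lie on 2L (2), 2R (4), 3L (12), 3R (8), 4 (1) and X (2). Exon bases were shared with a gene on the opposite strand in 13 members, and the use of strand in counting is not stated in the labels or file headers. The share was highest in MED21 (26.6%, with Set1), while MED20, kto and Cdk8 shared none.

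Per kilobase of exon, the subunits of 1 complex spanned a wide range of RNA levels. In Luc KD with Ac WT of set 1 the highest was MED30, a subunit near the joint of head and tail that is known from metazoans (FBgn0035149, 3L 652987 to 654089), at 2711 ± 313 (SD) scaled reads per kb. MED15, a tail subunit contacted by activators, followed at 2159 ± 91.0. MED26, which in mammals recruits elongation factors, ranked next at 1172 ± 35.2. MED19, MED14 and MED1 came next at 1136 ± 7.8, 1122 ± 28.3 and 1064 ± 10.6. Differences between these genes were not tested, and their order depended on the length used. Per kb of the longest transcript, MED1 was at 1238 and MED26 at 1192. The lowest was Cdk8, the kinase itself (FBgn0015618, 3L 9837080 to 9838670), at 196.8 ± 5.45 per kb. MED16 and MED23, both in the tail, stood just above it at 249.5 ± 24.4 and 251.9 ± 8.4. In set 2 the same genes stood at the ends, with MED30 at 1140 ± 43.0 and Cdk8 at 74.8 ± 7.72 per kb in Luc KD.

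**Figure D1:**
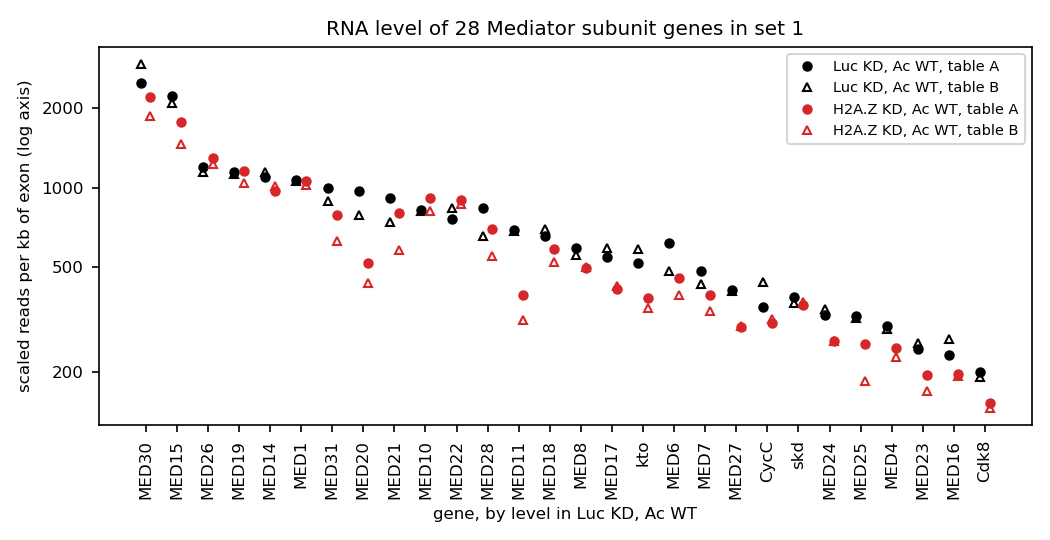
RNA level of 28 Mediator subunit genes in set 1, in scaled reads per kb of exon on a log axis, ordered by the level in Luc KD with Ac WT. Black symbols are Luc KD and red symbols are H2A.Z KD, both with Ac WT, and circles and triangles are the libraries of tables A and B; the levels run from 2711 for MED30 to 196.8 for Cdk8, and the red symbols of MED20 and MED11 stand clearly below the black ones.

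The comparison of Ac WT with Ac R29G asks whether a change in the transfected proneural factor alters gene expression. No Mediator subunit was called between them. The fitted log2 differences (WT minus R29G) ran from -0.18 for MED4 to 0.21 for MED20, with a median of 0.02 beside -0.01 over all 11942 genes tested. limma called 0% of all genes and 0 of the 28 members. An unadjusted p under 0.05 was found for 240 of the 11942 genes, which is a share below 0.05. edgeR also called 0 genes (155 unadjusted), and DESeq2 called 8 genes, none of them a member. When the table was a block, 0.62% of all genes were called by limma and again 0 members.

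MED20, a head subunit, had the highest difference of the members in this comparison. It was at 1004 and 818 scaled reads with Ac WT in tables A and B and at 785 in both libraries with R29G (SE 0.15, adjusted p = 1.000, limma). The Ac WT libraries were thus both above the R29G libraries, but they differed more from each other than the lower of them did from R29G. MED21, a middle subunit, came second at 881 and 716 with Ac WT against 826 and 662 with R29G (log2 difference 0.10, SE 0.20), and its groups overlapped. At the other end stood MED4, a middle subunit, with 282 and 276 against 338 and 297, and MED10, also of the middle, with 525 and 523 against 588 and 535 (log2 difference -0.10, SE 0.12). Both were lower with Ac WT in each table without passing the test.

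None of the kinase module genes was called between the Ac forms. Cdk8 was at 307 and 295 with Ac WT and 346 and 287 with R29G. CycC was at 403 and 502 against 373 and 522, and kto at 4050 and 4565 against 4055 and 4470. For both genes the 2 tables differed far more than the 2 Ac forms did. skd stood at 4747 and 4488 with Ac WT and 4579 and 4552 with R29G, again overlapping. The log2 differences of the 4 genes were -0.07, 0.03, 0.01 and 0.02.

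In H2A.Z KD, the RNA of most Mediator subunits was lower than in Luc KD, with members of the head, tail and kinase modules among them. No difference between modules was tested. The median log2 difference (H2A.Z KD minus Luc KD) was -0.34 over the 28 members beside -0.01 over all genes, and 25 of 28 members had a negative difference. Mediator reads made up 0.182% and 0.195% of all gene reads in Luc KD (tables A and B) and 0.140% and 0.144% in H2A.Z KD. These shares do not use the size factors. In scaled reads the drop was smaller, with the members summing to 51783 to 52028 in Luc KD and 42990 to 46022 in H2A.Z KD. The libraries of the groups did not overlap and were lower in H2A.Z KD in 20 of 28 members, where the share over all genes was 27%. In these bulk samples, fewer cells of a type and less RNA per cell cannot be told apart.

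How many members passed the test depended on the table being taken into account. Without a block, limma called 3 of 28 members lower and 0 higher, where 2.19% of all genes were called lower and 2.45% higher. With the table as a block it called 21 lower and 0 higher, where 19.3% of all genes were called lower and 18.4% higher. edgeR without a block called 4 lower (3.69% of all genes), and DESeq2 called 8 lower (7.96%). In the authors' deposited table, members lower in H2A.Z KD numbered 9 at an adjusted p under 0.05, where 8.55% of genes with such a value were lower. Leaving out any 1 of the 6 libraries of set 1 ended all 3 calls made without a block, as did leaving the R29G libraries out of the fit or dropping the intensity trend. The calls over all genes went down with them, from 555 to between 4 and 92 with 1 library left out, 20 without the R29G libraries and 2 without the trend. With the block, the count of members was 13 without the Luc KD library of table A and 12 without that of table B, where 3314 and 2699 of all genes were called in place of 4497. It was 14 without the H2A.Z KD library of table B (3724 of all genes). Dropping the trend with the block left 0 members and 0 genes.

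**Figure D2:**
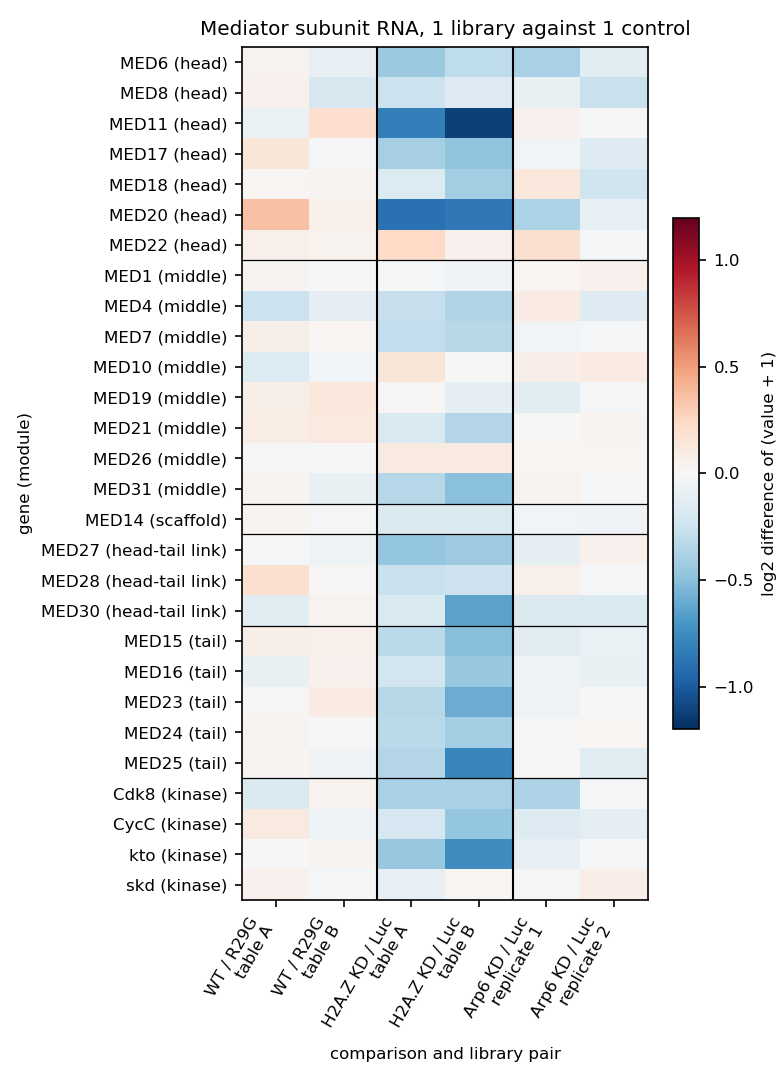
Log2 difference of (scaled reads + 1) of each of 28 Mediator subunits, 1 library against its control from the same table or with the same replicate number, for Ac WT over R29G, H2A.Z KD over Luc KD and Arp6 KD over Luc KD. Rows are grouped by module and blue means lower; the H2A.Z KD columns are blue in most rows, with the median at -0.34, and reach -1.12 for MED11.

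The head module, which contacts the polymerase, held the 2 members with the lowest differences. MED11, a small head subunit that pairs with MED22 in yeast (FBgn0036811, 3L 18745856 to 18746623, plus strand), was at 494 and 491 scaled reads in Luc KD and at 280 and 226 in H2A.Z KD. Every H2A.Z KD library was far below every control, and the controls barely differed. Its log2 difference was -0.97 (SE 0.16, adjusted p = 0.0314, limma), with values of -0.82 in table A and -1.12 in table B.

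MED20, which binds MED18 to form the movable part of the head in yeast (FBgn0013531, 2L 8071812 to 8072848, minus strand), was at 1004 and 818 in Luc KD and 540 and 450 in H2A.Z KD. Its H2A.Z KD libraries held 53.8% and 55.0% of the control of the same table. The log2 difference was -0.88 (SE 0.15, adjusted p = 0.0303, limma). Of the 7 head genes, 5 fell with the table as a block, where 19.3% of all genes fell. Among them was MED17, the central head subunit, at 1123 and 1222 in Luc KD and 854 and 875 in H2A.Z KD (log2 difference -0.44, adjusted p = 0.0886 in limma without and 0.000408 with the block). MED6 fell by 0.37 on the log2 scale with the block (adjusted p = 0.000987, limma). MED18, the partner of MED20, fell by 0.29 (adjusted p = 0.0265 with the block, limma), while MED8 was at 572 and 537 against 480 and 482 and did not pass (adjusted p = 0.112 with the block, limma).

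MED22 (FBgn0040339, X 928139 to 928860, plus strand), the yeast partner of MED11, had the highest difference of all members. It was at 458 and 502 in Luc KD and 541 and 520 in H2A.Z KD, a log2 difference of 0.15 (SE 0.12, adjusted p = 0.514, limma). Its H2A.Z KD libraries were both above the controls while those of MED11 were both below. Of its exon bases, 10.5% are shared with CG3708 on the opposite strand. Among members with a larger such share, MED21 (26.6%), MED24 (22.6%), MED6 (16.3%) and CycC (12.5%) fell with the block and MED8 (13.5%) did not. The part of the shared bases in these values was not tested.

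**Figure D3:**
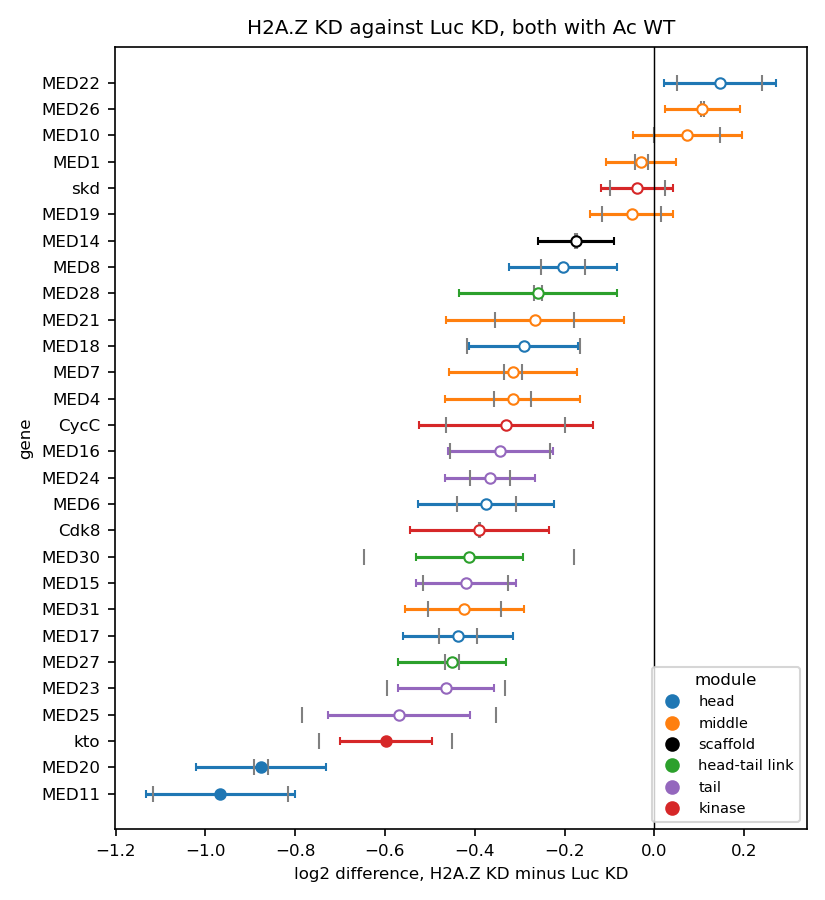
Log2 difference between H2A.Z KD and Luc KD, both with Ac WT, for 28 Mediator subunits, coloured by module. Circles are the fitted values with the SE as bars, filled where limma without a block called the gene, and grey ticks are the differences within tables A and B; MED11 is lowest at -0.97 and MED22 highest at 0.15.

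In the tail, where activators dock, every gene had a negative difference. All 5 tail genes (MED15, MED16, MED23, MED24 and MED25) fell with the table as a block, where 19.3% of all genes fell. Without the block 0 of them passed limma, where 2.19% of all genes fell. MED15 was at 5763 and 5429 in Luc KD and 4600 and 3801 in H2A.Z KD (log2 difference -0.42, SE 0.11, adjusted p = 0.0774 in limma without and 5.05e-05 with the block). MED23 was at 1152 and 1207 against 915 and 798 (log2 difference -0.46), and MED25, the target of a viral activator in mammals, at 906 and 886 against 709 and 514 (log2 difference -0.57). In these 3 genes every H2A.Z KD library was below every control, and the library of table B was the lower one. MED24 was at 1054 and 1115 against 843 and 839 (log2 difference -0.37). MED16 was at 640 and 735 against 545 and 536 (log2 difference -0.34, adjusted p = 0.136 in limma without and 0.00673 with the block).

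The subunits at the joint of head and tail, MED27, MED28 and MED30, all fell with the block, where 19.3% of all genes fell. MED30 was at 2746 and 3234 in Luc KD and 2427 and 2067 in H2A.Z KD, which is 88.4% of control in table A and 63.9% in table B. MED27 was at 442 and 438 against 320 and 324, with nearly the same difference in both tables (log2 -0.45, SE 0.12, adjusted p = 0.0784 in limma without and 0.00221 with the block). MED28 was at 622 and 488 against 517 and 410, so its groups overlapped although each table showed a lower value. The gene ix (MED29), which is no member by its name, was at 417 and 403 against 288 and 251, a log2 difference of -0.60 (SE 0.14, adjusted p = 0.0561 in limma without and 0.000319 with the block).

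The middle module was the most mixed. Of its 8 measured genes, 4 fell with the block, namely MED31, MED21, MED7 and MED4, where 19.3% of all genes fell. MED31, a conserved middle subunit, was at 1095 and 982 in Luc KD and 863 and 692 in H2A.Z KD (log2 difference -0.42, adjusted p = 0.116 in limma without and 0.000793 with the block). MED21 was at 881 and 716 against 778 and 560, with overlapping groups (log2 difference -0.27). MED7 and MED4 both had a log2 difference of -0.32, with adjusted p of 0.0249 and 0.0474 in limma with the block. MED14, the backbone, fell slightly with the block, at 6074 and 6295 against 5376 and 5590 (log2 difference -0.17, adjusted p = 0.257 in limma without and 0.0183 with the block).

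MED1, MED19, MED10 and MED26 of the middle module passed neither fit. MED26 (FBgn0039923, 4 778516 to 788978, minus strand), the only member on chromosome 4, was at 6071 and 5819 in Luc KD and 6552 and 6250 in H2A.Z KD. Its H2A.Z KD libraries stood above both controls, with a log2 difference of 0.11 (SE 0.08, adjusted p = 0.473, limma). MED1, which binds nuclear receptors in mammals, was at 6188 and 6102 against 6124 and 5921 (log2 difference -0.03, SE 0.08). MED19, a partner of Hox proteins in the fly, was at 2116 and 2095 against 2137 and 1933 (log2 difference -0.05), and MED10 at 525 and 523 against 581 and 523 (log2 difference 0.07). The groups of MED1, MED19 and MED10 overlapped.

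Within the kinase module, kto was called lower and skd was not. kto (FBgn0001324, 3L 19836614 to 19844944, plus strand) was at 4050 and 4565 in Luc KD and 2964 and 2721 in H2A.Z KD, with no overlap. Its log2 difference was -0.60 (SE 0.10, adjusted p = 0.0318, limma). skd (FBgn0003415, 3L 20992814 to 21027434, minus strand) was at 4747 and 4488 in Luc KD and 4431 and 4561 in H2A.Z KD, a log2 difference of -0.04 (SE 0.08, adjusted p = 0.813, limma), and its groups overlapped.

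The ratio of kto to skd per kb of exon was lower in H2A.Z KD than in the other groups of set 1. It was 1.35 and 1.61 in Luc KD with Ac WT (tables A and B), 1.40 and 1.55 with R29G, and 1.06 and 0.944 in H2A.Z KD. The set 2 ratios were 1.34 and 1.38 in Luc KD and 1.27 and 1.29 in Arp6 KD. The pair was chosen after its values were seen, and the ratio is given as a description with no test. Cdk8 was at 307 and 295 in Luc KD and 234 and 225 in H2A.Z KD (log2 difference -0.39, SE 0.15, adjusted p = 0.179 in limma without and 0.0172 with the block). CycC (FBgn0004597, 3R 14889004 to 14890205, minus strand) was at 403 and 502 against 351 and 364 (log2 difference -0.33, SE 0.19, adjusted p = 0.341 without and 0.0300 with the block). Both kinase and cyclin were lower in each table. With the block, 3 of the 4 genes fell and skd did not, where 19.3% of all genes fell.

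**Figure D4:**
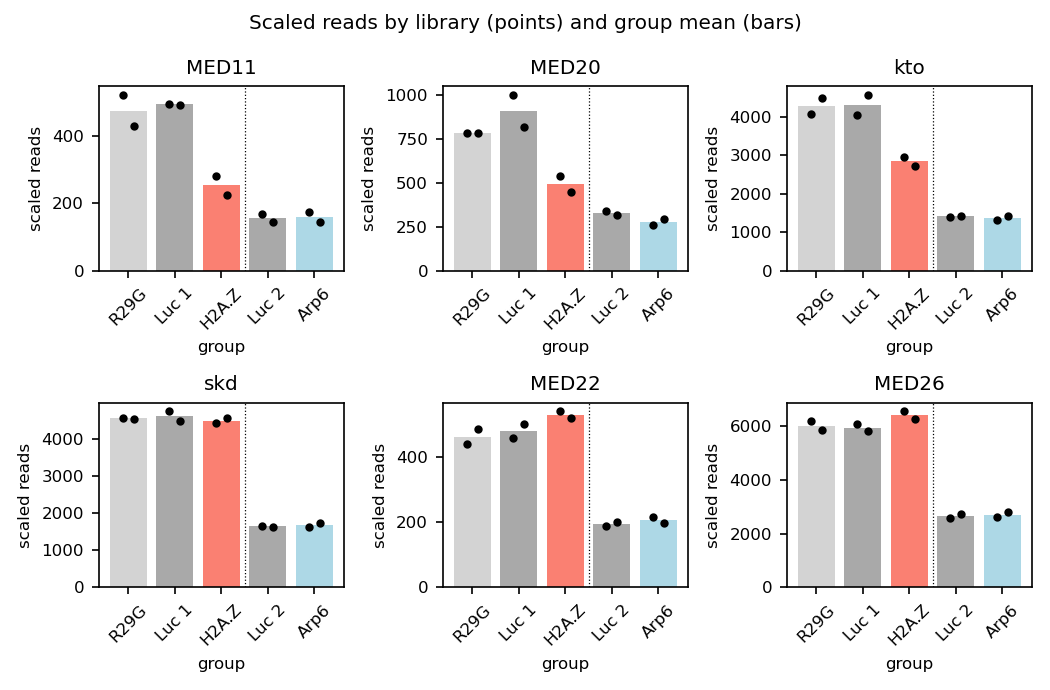
Scaled reads of 6 Mediator subunits in each library (points) with the group mean (bars); the dotted line separates set 1 (R29G, Luc 1, H2A.Z) from set 2 (Luc 2, Arp6), whose levels are not on 1 scale. In H2A.Z KD the points of MED11, MED20 and kto lie below all others of set 1, those of skd overlap the controls, and those of MED22 and MED26 lie above the others of set 1.

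The members were also split by exon length. The 5 members with at least 5000 exon bases (kto, skd, MED1, MED14 and MED26) had a median of -0.04, and the 23 shorter ones a median of -0.37. Over all genes with a mean of at least 10 the medians of these length classes were 0.04 (1291 genes) and -0.03 (7772 genes). Of the 5 long members, kto, with 7776 exon bases, and MED14 fell with the block. Across the members, Spearman's rho between exon length and the log2 difference was -0.08, and 0.06 across all 9063 genes; these are descriptions over genes that share the same libraries.

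The scale of the libraries set where zero lay. When each library was scaled by its median, the median of all genes moved to 0.12 and that of the members to -0.20, so the members stood 0.32 below all genes on both scales. With quantile normalization the medians were -0.03 and -0.21, and the members stood 0.18 below all genes. Without a block, median scaling gave 874 genes higher and 211 lower over all genes, against 293 and 262 on the main scale. The count of members lower was 3 on both of these scales. With the block, median scaling called 12 members lower and 2 higher (MED22 at 0.28 and MED26 at 0.24), where 11.3% of all genes were called lower and 26.9% higher. The values of skd, MED1 and MED19 became positive on that scale. Quantile normalization with the block called 14 lower, including MED1 at -0.16, and 1 higher, MED22, where 16.9% of all genes were lower and 15% higher. MED11, MED20 and kto were called lower on the main, median, TMM and quantile scales without the block, and on the main, median and quantile scales with it.

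Other lists of the transcription machinery were fitted in the same model, where 2.19% of all genes fell without the block and, with it, 19.3% fell and 18.4% rose. Among TFIIH genes, 1 of 9 tested fell without the block, namely Xpd, a helicase of DNA repair. It was at 1624 and 1950 in Luc KD and 1085 and 958 in H2A.Z KD (log2 difference -0.80, SE 0.13, adjusted p = 0.0295, limma). With the block 5 of 9 TFIIH genes fell and the list's median was -0.27. Of 14 TFIID genes, 7 fell and 0 rose with the block (median -0.24), led by Taf6 at -0.62 (adjusted p = 0.0604 in limma without and 5.18e-05 with the block). Of 7 other initiation factors 3 fell and 0 rose (median -0.20). Of 21 elongation and pausing factors 7 fell, among them Cdk9 at -0.47, and 2 rose (median -0.13). Of 11 subunits of RNA polymerase II, 2 fell (Rpb11 and RpII15), 2 rose (Rpb12 and RpII215) and the median was 0.08, so that its counts lay near the shares over all genes. No difference between these lists and Mediator was tested.

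**Figure D5:**
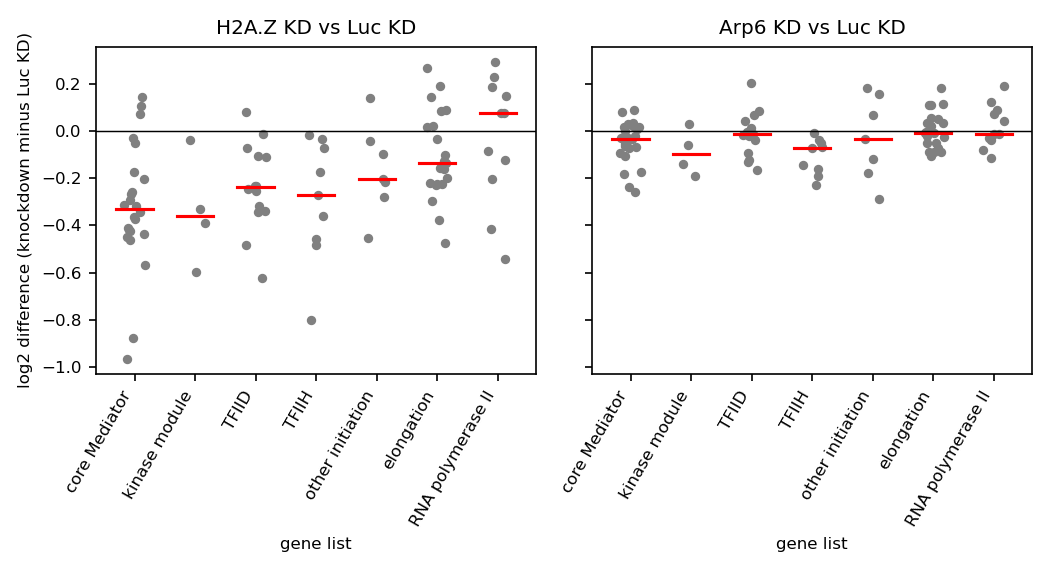
Log2 differences of core Mediator, kinase module and other transcription machinery genes in H2A.Z KD (left) and Arp6 KD (right) against their own Luc KD libraries. Each grey point is a gene and each red line the list's median; in H2A.Z KD the medians are below 0 for every list except RNA polymerase II at 0.08, and in Arp6 KD the medians lie between -0.10 and -0.01.

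Other measures also differed in the H2A.Z KD libraries. Of 12 hemocyte markers, 2 rose without the block (NimC1, a phagocytosis receptor, by 2.58 and eater by 0.71 on the log2 scale), where 2.45% of all genes rose, and 9 rose with it, where 18.4% did. The list's median was 0.27, and NimC2 was the 1 marker with a negative value, at -0.93 (adjusted p = 0.252 in limma without and 0.0515 with the block). Their summed level was 561374 to 745760 scaled reads in H2A.Z KD and 469187 to 588730 in Luc KD. All 5 germline markers had positive values, and vas rose by 2.65 on the log2 scale without the block (adjusted p = 0.0190, limma), the others not passing the test. RNA of the transfected da stood at 69.6% of its control (table A) and 70.2% (table B). That of ac was at 17276 and 24780 scaled reads in Luc KD (tables A and B) and 14079 and 25982 in H2A.Z KD, so its groups overlapped. The part of these differences in the Mediator values was not tested.

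In Arp6 KD, no Mediator subunit was called against its own Luc KD libraries. limma called 0 of 28 members, where 0.0283% of all 10605 genes were called and 739 had an unadjusted p under 0.05. With the replicate number as a block it called 0 members and 0% of all genes, and DESeq2 called 16 genes and 0 members. edgeR with that block called 2 members lower, MED6 and MED30, where 4.2% of all genes were called lower. The median log2 difference was -0.04 over the members beside -0.01 over all genes, and 10 of 28 members had non-overlapping libraries that were lower in Arp6 KD, where the share over all genes was 20.4%.

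Replicate 1 of Arp6 KD stood apart in the RNA of the transfected genes. Against the control of the same number, da was at 45.9% in replicate 1 and 81.7% in replicate 2, and ac at 48.5% and 92.9%. The 12 hemocyte markers summed to 228368 to 249935 scaled reads in Arp6 KD and 197136 to 211448 in Luc KD. Of these markers, 11 had a positive log2 difference (median 0.18), and 0 were called in limma. The part of these differences in the Mediator values was not tested.

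The lowest members in Arp6 KD were both of the head. MED6 (FBgn0024330, 3R 9766031 to 9768984, minus strand) was at 418 and 434 scaled reads in Luc KD (replicates 1 and 2) and 318 and 398 in Arp6 KD, a log2 difference of -0.26 (SE 0.11, adjusted p = 0.702, limma). MED20 was at 342 and 316 against 263 and 295 (log2 difference -0.24, SE 0.10). For both genes the Arp6 KD libraries lay below the controls, and the lower one was replicate 1, where Arp6 RNA itself was at 79.8% of control and da at 45.9%. The highest were MED10, at 219 and 223 against 232 and 238 (log2 difference 0.09, SE 0.10), and MED22, at 188 and 200 against 215 and 197 (log2 difference 0.08, SE 0.11).

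The kinase module in Arp6 KD was called in 0 of its 4 genes. Cdk8 was at 123 and 106 in Luc KD and 94.9 and 105 in Arp6 KD. CycC was at 278 and 270 against 250 and 249. Both were below their controls in each replicate, with log2 differences of -0.19 (SE 0.16) and -0.14 (SE 0.10). kto was at 1401 and 1434 against 1310 and 1417, and skd at 1648 and 1640 against 1629 and 1733, both with overlapping groups. MED11, the lowest member in H2A.Z KD, was at 168 and 145 in Luc KD and 174 and 146 in Arp6 KD, a log2 difference of 0.03 (SE 0.15).

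The effects of the knockdowns, which have separate controls, were compared in 1 model over all 10 libraries. Without a block, limma called 0 of 28 members different, where 0.0177% of all genes were called, and 9 members had an unadjusted p under 0.05. With the table or replicate number as a block it called 9 members, where 15.2% of all genes were called, and all 9 were lower in H2A.Z KD than in Arp6 KD. The difference of effects was -0.996 for MED11 (adjusted p = 0.199 in limma without and 0.000573 with the block) and -0.54 for kto (adjusted p = 0.201 without and 0.00108 with the block). The other 7 were MED20, MED25, MED23, MED31, MED24, MED17 and MED15. The difference between the knockdowns in these genes thus passed where the pairing of libraries was used and not without it. Arp6 RNA was lowered unequally in the 2 Arp6 KD libraries, replicate 1 held less ac and da RNA than its control, and set 2 was less deep.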

How the data were processed

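RNA was sequenced from 10 libraries of S2 cells. The authors deposited a size-factor-scaled signal per gene in 3 tables; the submitters' processing notes name Partek and BDGP6 without a role, while aligner, counter and strand use are not stated in the sources used here. Whole reads were recovered from the deposited values (100% whole within 0.001 reads). The authors' own comparisons were deposited too, with a mean signal, log2 fold changes, a score and p-values, per the file headers.

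Column names of the first 2 tables give no replicate; their Luc KD columns were read as set 1 controls, since R29G columns stand beside them. Both tables of set 1 were rescaled together with median-of-ratios factors from all 23932 features; deposited values were used for set 2. Features without gene identifiers (6063 in set 1 and 1671 in set 2) were left out of the tests. limma 3.58.1 (R 4.3.3) with an intensity trend was fitted on log2(value + 1) for all genes whose mean reached 1, and p-values were adjusted over all genes by Benjamini-Hochberg (threshold 0.05); fold changes on this scale understate those of low genes. edgeR 4.0.16 and DESeq2 1.42.0 on the recovered reads were alternatives. Only the limma fits of the knockdown comparisons, with and without the block, were tried on simulated data. Figures were drawn with matplotlib 3.10.9 (Python 3.11.15).

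Libraries deposited in 1 table deviated together from their group means (correlations 0.62, 0.58 and 0.65 over 9103 genes). The main fit had no block, and the fits with a block treated set 1 as paired by table. The labels themselves give no pairing. In set 2 the correlation was 0.50 (7976 genes) with 2 pairs.

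Gene lengths and coordinates came from an Ensembl annotation of BDGP6 that gave all 29 members the same coordinates as the deposited tables. The members and lists were chosen with earlier results of these data known. Named genes were the kinase module, the 2 highest and 2 lowest members of each comparison, called members, the ends of the level order, up to 4 members per module called only with the block, and up to 3 genes per other list and direction; MED1, MED19, MED28, ix and the remaining members named were added to account for every module. The overlap of 1 member with a neighbouring gene is not reported here.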

Additional observations from a re-analysis of the deposited data

Results flagged for a closer look

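The effect of H2A.Z KD and that of Arp6 KD differed in 9 of 28 Mediator subunits by a test of the difference itself, where 15.2% of all genes were called. The test was limma with the table or replicate number as a block over all 10 libraries. The log2 effect of H2A.Z KD minus that of Arp6 KD was -0.996 for MED11, -0.64 for MED20, -0.54 for kto, -0.50 for MED25, -0.43 for MED23, -0.43 for MED31, -0.37 for MED24, -0.34 for MED17 and -0.31 for MED15. Without the block, 0 of these passed in limma, where 0.0177% of all genes were called. The knockdowns were made in sets of unequal depth with separate controls, Arp6 RNA was at 79.8% and 22.0% of control, and da RNA at 45.9% and 81.7% in the Arp6 KD libraries; their part in the difference was not tested.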

How the results depend on the processing

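In H2A.Z KD, 3 members were called without a block, all lower, where 2.19% of all genes were called lower. The count was 21 with the replicate block in limma (19.3% of all genes lower) and 21 in edgeR (25.8%), and 8 in DESeq2 (7.96%). It was 0 without the intensity trend, where 2 of all genes were called without the block and 0 with it. With the groups compared alone it was also 0, where 20 of all genes were called. The following block fits were chosen after seeing the data. With median scaling and the block 14 members were called (11.3% of all genes lower and 26.9% higher). With quantile normalization and the block 15 were called (16.9% lower and 15% higher). Leaving out 1 library, which left 1 library in a group, gave members' medians of -0.42 to -0.27 without the block and -0.38 to -0.28 with it. The members' median was -0.20 with median scaling and -0.21 with quantile normalization, with or without the block. Median scaling turned skd to 0.10, MED19 to 0.085 and MED1 to 0.11, and quantile normalization turned MED26 to -0.021. With 1 library left out, MED10 ranged from -0.00319 to 0.15, skd from -0.087 to 0.011 and MED19 from -0.12 to 0.022.

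In Arp6 KD, the count was 2 in edgeR with the replicate block, where 4.2% of all genes were called lower. The median, -0.04 in limma, was -0.049 in edgeR and -0.048 in edgeR with the block. It was -0.011 with median scaling and -0.027 with quantile normalization, with or without the block, and -0.080 to -0.0091 with 1 library left out. There, skd was -0.011 with quantile normalization and -0.013 to 0.076 with 1 library left out.

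For Ac WT against R29G, leaving out 1 library gave a median of -0.017 to 0.063, and values of -0.033 to 0.065 for skd, -0.056 to 0.26 for MED21, -0.072 to 0.10 for kto, -0.21 to 0.27 for CycC and -0.20 to 0.069 for Cdk8. The test of the difference between knockdowns called 9 members with the replicate block (15.2% of all genes) and 0 without (0.0177%). The block in set 2 rests on 2 pairs; leaving out a library with the block was not run there, since 1 pair would remain. The causes of these shifts were not tested. Set 2 was less deep than set 1, and Cdk8 held 94.9 to 123 scaled reads there.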
